A study of Mus musculus with 12 samples.

Results

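A set of 10 transcription factor genes known from patterning of jaw, tooth, limb, gut and vertebral mesenchyme were followed in mesenchyme of the developing mouse lower urinary tract: Dlx5, Dlx6, Msx1, Msx2, Barx1, Barx2, Lhx8, Sp8, Pax9 and Pax1. They are 10 of the 55228 genes counted, were taken by gene symbol from both count tables, and were chosen by their levels in urethral against bladder mesenchyme in earlier results of these libraries, where they were listed as urethral regulators. Differences between urethral and bladder mesenchyme are therefore given for them as a description, without a test. Differences between stages, and the relation to the basal keratin Krt5 within groups, were tested. The word urethral in their label held for part of them: Dlx5, Barx2, Lhx8, Sp8 and Pax9 averaged higher in urethral mesenchyme at both stages, as did Msx1. Msx2 was higher in E18.5 bladder mesenchyme, Dlx6 did not differ at E18.5 beyond its spread, Barx1 was close to the detection limit, and Pax1 had 1 count in all 12 libraries together.

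All libraries came from untreated wild-type CD-1 mouse embryos, females only, at E18.5 or E14.5 counted from the vaginal plug. The 4 groups were urethral and bladder mesenchyme at E18.5, and urethral and bladder mesenchyme at E14.5, with 3 libraries each. Each library pooled the embryos of 1 litter, so a library is a mean over animals. The proximal urethra and bladder were cut apart after cold trypsin digestion, and the epithelium was then pulled off with forceps. Poly(A) RNA was sequenced, and levels are given as CPM, the count scaled to a common library size after TMM normalisation. Nothing in the libraries tells fewer cells of a type from less RNA per cell.

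Homeodomain proteins such as Dlx, Msx, Barx and Lhx8, the paired domain proteins Pax1 and Pax9 and the zinc finger protein Sp8 bind DNA and set the identity or outgrowth of embryonic tissue, most often in mesenchyme that exchanges signals with an overlying epithelium. In the mouse lower jaw, endothelin A receptor signalling turns on Dlx5 and Dlx6, and in many organs BMP ligands turn on Msx1 and Msx2, whose products mostly repress transcription. Pax9, Lhx8, Msx1 and Barx1 are long-used markers of tooth and palate mesenchyme.

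RefSeq start sites were available for 7 of the 10 genes, all but Dlx5, Dlx6 and Barx2. 4 promoters are shown, each 250 bases before to 50 bases after the annotated start on the gene's own strand in GRCm38.p6. Msx1 and Msx2 are shown because these sister genes had opposite compartment patterns at E18.5, and Pax9 and Lhx8 because they were at or near 0 counts in bladder libraries. Capitals mark the homeodomain core words TAATTA and TAATTG, the GC box GGGCGG and the TATA word TATAAA, each searched on both strands, with no overlap between marked matches.
Msx1 (chr5:37824536-37824835, minus strand): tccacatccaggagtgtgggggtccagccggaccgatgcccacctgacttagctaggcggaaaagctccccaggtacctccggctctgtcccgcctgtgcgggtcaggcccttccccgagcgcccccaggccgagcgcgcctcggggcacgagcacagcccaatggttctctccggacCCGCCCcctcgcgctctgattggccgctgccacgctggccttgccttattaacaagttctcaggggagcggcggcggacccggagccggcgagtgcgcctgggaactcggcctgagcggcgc
Msx2 (chr13:53472731-53473030, minus strand): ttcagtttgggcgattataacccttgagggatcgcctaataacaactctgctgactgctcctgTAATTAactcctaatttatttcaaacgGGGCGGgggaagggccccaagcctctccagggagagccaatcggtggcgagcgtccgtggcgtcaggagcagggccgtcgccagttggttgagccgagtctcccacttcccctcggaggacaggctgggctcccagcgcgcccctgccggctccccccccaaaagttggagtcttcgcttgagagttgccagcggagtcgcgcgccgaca
Pax9 (chr12:56695221-56695520, plus strand): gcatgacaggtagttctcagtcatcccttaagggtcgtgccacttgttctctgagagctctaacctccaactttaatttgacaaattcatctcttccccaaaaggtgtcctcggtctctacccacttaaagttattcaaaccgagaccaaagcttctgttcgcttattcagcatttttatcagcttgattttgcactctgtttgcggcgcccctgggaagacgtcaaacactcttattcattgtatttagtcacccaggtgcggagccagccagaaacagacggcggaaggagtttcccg
Lhx8 (chr3:154330511-154330810, minus strand): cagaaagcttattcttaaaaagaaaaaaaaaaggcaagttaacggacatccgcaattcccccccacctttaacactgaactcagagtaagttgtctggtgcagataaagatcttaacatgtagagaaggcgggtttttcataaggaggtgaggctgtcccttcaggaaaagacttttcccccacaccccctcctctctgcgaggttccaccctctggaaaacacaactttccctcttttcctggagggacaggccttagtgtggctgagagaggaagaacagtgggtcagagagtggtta
The Msx1 promoter held 1 GC box, on the strand opposite to the gene and so printed as CCGCCC, and the Msx2 promoter held 1 TAATTA and 1 GC box. The Pax9 and Lhx8 windows held none of these words. Of 32817 promoters of the same length, 35.6% held GGGCGG, 5.3% TAATTA, 8% TAATTG and 13.6% TATAAA. The Msx1 window had 29 CpG dinucleotides, more than 87.1% of all promoters, against 22 for Msx2, 11 for Pax9 and 4 for Lhx8. These are matches of letters and say nothing of binding.

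Total counts per library ranged from 21495169 to 36349777, and of the 10 genes 8 passed the filter on low counts and were tested among 18805 genes; Barx1 and Pax1 did not pass. The libraries were not free of epithelium. Krt5, which marks basal urothelial cells, was 714, 984 and 759 CPM in E18.5 urethral libraries (replicates 1, 2 and 3), against 1439, 755 and 1249 CPM in E18.5 bladder libraries. It was 499, 136 and 199 CPM in E14.5 urethral libraries, against 42.7, 3.73 and 2.12 CPM in E14.5 bladder libraries. Replicate 1 of both E14.5 groups thus stood apart, with more Krt5 than the other two libraries of its group, and on the first principal component it also lay nearer the E18.5 libraries. The summed level of 26 epithelial markers, none of them at 0 in any group, was 5380 to 7987 CPM in E18.5 urethral, 12582 to 16830 CPM in E18.5 bladder, 1120 to 2683 CPM in E14.5 urethral and 425 to 2211 CPM in E14.5 bladder mesenchyme. Other cell types differed between the compartments too. All 8 neuronal markers were higher in urethral mesenchyme at both stages, with sums of 568 to 1582 CPM in E18.5 urethral, against 58.5 to 140 CPM in E18.5 bladder libraries. Of 10 smooth muscle markers, 10 at E18.5 and 8 at E14.5 were lower in urethral mesenchyme, with E18.5 sums of 2616 to 2919 CPM in urethral, against 23517 to 43538 CPM in bladder libraries. The part of these cell types in the differences below was not tested, except where Krt5 is taken up.

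**Figure D1:**
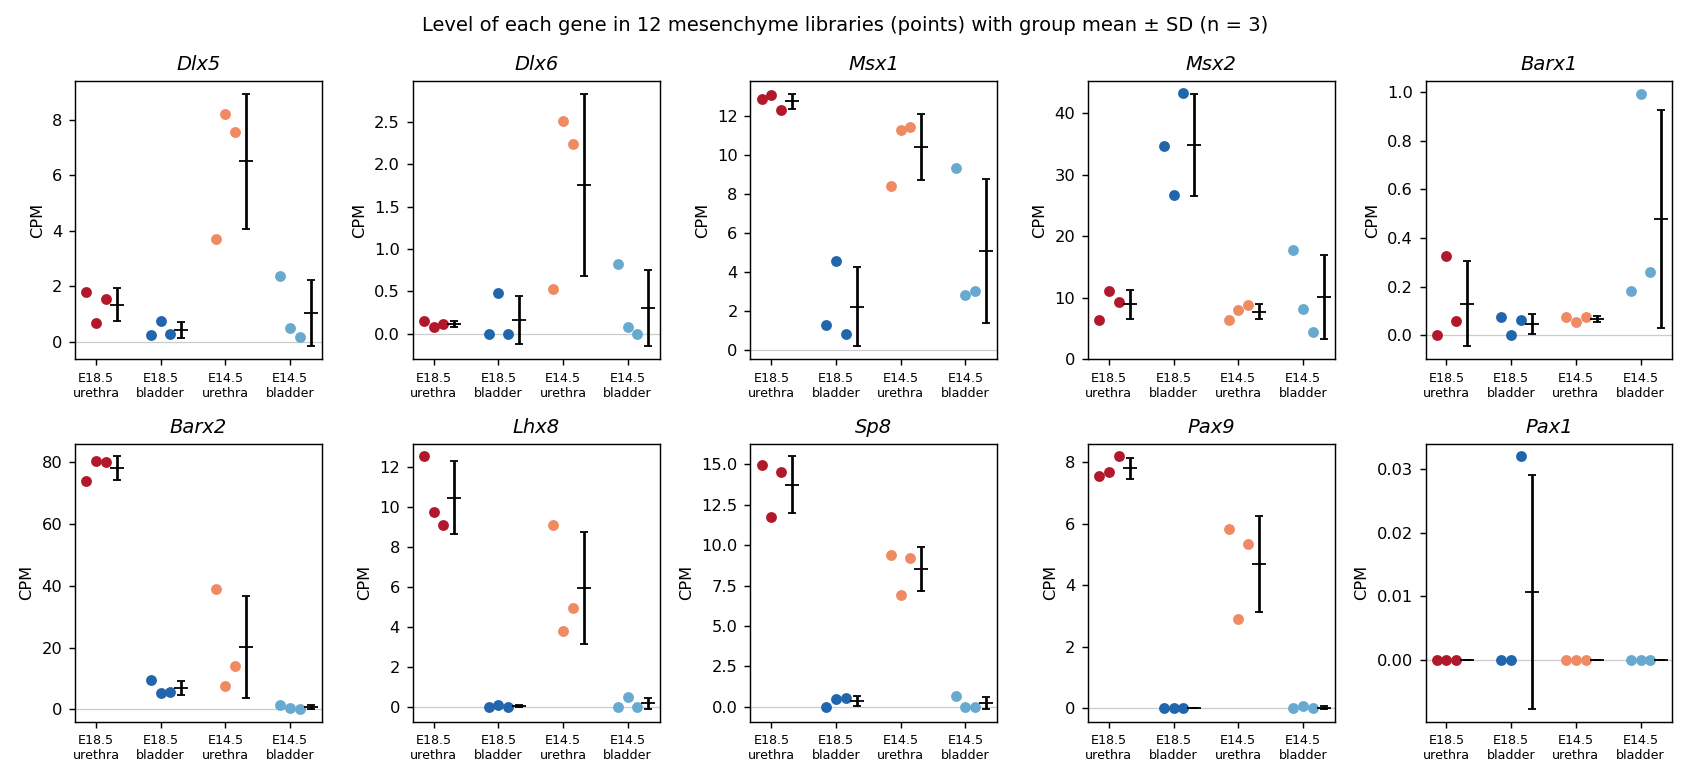
Level of each of the 10 genes in every library, in CPM on a linear axis that differs between panels; points are libraries, bars the group mean ± SD (n = 3). Lhx8, Sp8 and Pax9 lie near 0 in both bladder groups, Msx2 is highest in E18.5 bladder mesenchyme, and Barx1 and Pax1 stay under 1 CPM in every library.

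Dlx5 and Dlx6 lie on mouse chromosome 6 (GRCm38, 6877805 to 6882085 on the minus strand and 6863334 to 6868568 on the plus strand), 9236 bases apart and transcribed towards each other. Dlx5 was 1.80, 0.656 and 1.52 CPM in E18.5 urethral libraries, against 0.224, 0.751 and 0.256 CPM in E18.5 bladder libraries. At E14.5 it was 3.71, 8.22 and 7.56 CPM in urethral libraries, against 2.38, 0.497 and 0.173 CPM in bladder libraries. The E14.5 compartments did not overlap, those of E18.5 did. Dlx6 was 0.152, 0.0819 and 0.117 CPM in E18.5 urethral libraries, against 0, 0.483 and 0 CPM in E18.5 bladder libraries. It reached 0.530, 2.51 and 2.24 CPM in E14.5 urethral libraries, against 0.823, 0.0829 and 0 CPM in E14.5 bladder libraries. Urethral minus bladder, the log2 difference at E14.5 was 2.69 ± 0.75 for Dlx5 and 2.56 ± 1.16 for Dlx6 (± SE from the edgeR fit). At E18.5 it was 1.78 ± 0.81 for Dlx5 and -0.13 ± 1.57 for Dlx6, whose summed counts were 12 in urethral and 9 in bladder libraries. One library decides much of the E14.5 values: without bladder replicate 1 the log2 difference was 4.27 for Dlx5 and 5.26 for Dlx6. Likewise, without E18.5 bladder replicate 2 the difference at that stage was 2.46 ± 0.95 for Dlx5 and 4.84 ± 2.67 for Dlx6.

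Both Dlx genes fell with stage in urethral mesenchyme. Every E18.5 urethral library lay under every E14.5 urethral library, as for 22.7% of all tested genes, for Dlx5 with a log2 difference of -2.27 ± 0.72 (edgeR adjusted p = 0.0374) and for Dlx6 with -3.83 ± 1.24 (edgeR adjusted p = 0.0419). In bladder mesenchyme the stage difference was -1.37 ± 0.83 for Dlx5 (edgeR adjusted p = 0.199) and -1.14 ± 1.42 for Dlx6 (edgeR adjusted p = 0.538). Without E14.5 bladder replicate 1 the bladder estimates were 0.19 for Dlx5 and 1.54 for Dlx6. The urethral calls sit near the threshold: leaving out any E18.5 urethral library, or E14.5 urethral replicate 2 or 3, gave edgeR adjusted p of 0.0656, 0.127, 0.0988, 0.0844 and 0.103 for Dlx5, in that order of libraries, and of 0.101, 0.126, 0.128, 0.0871 and 0.104 for Dlx6, with log2 differences from -2.56 to -1.97 and from -4.07 to -3.47. Dlx6os1, an antisense transcript of the Dlx6 locus, had 4, 0 and 4 counts in E18.5 urethral libraries, against 13, 42 and 33 counts in E14.5 urethral libraries. In bladder it had 0, 4 and 4 counts at E18.5 and 10, 0 and 2 counts at E14.5. Opposite-strand exons of Dlx6os2 cover 4.38% of the exon length of Dlx6, and whether counting used strand is not given in the sources used here.

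Msx1 and Msx2, the BMP-responsive pair, moved apart. Msx1 (chromosome 5, 37820485 to 37824583) was 12.9, 13.1 and 12.3 CPM in E18.5 urethral libraries, against 1.27, 4.56 and 0.832 CPM in E18.5 bladder libraries. It was 8.43, 11.3 and 11.5 CPM in E14.5 urethral libraries, against 9.32, 2.82 and 3.03 CPM in E14.5 bladder libraries. E18.5 groups were separate, and at E14.5 bladder replicate 1 reached into the urethral range. Msx2 (chromosome 13, 53466884 to 53473074) was 6.37, 11.02 and 9.35 CPM in E18.5 urethral libraries, against 34.6, 26.6 and 43.2 CPM in E18.5 bladder libraries. It was 6.35, 7.98 and 8.74 CPM in E14.5 urethral libraries, against 17.7, 8.12 and 4.45 CPM in E14.5 bladder libraries. All 3 E18.5 bladder libraries thus exceeded every other library. Urethral minus bladder, Msx1 differed by 2.57 ± 0.59 and Msx2 by -1.97 ± 0.41 on the log2 scale at E18.5, and by 1.04 ± 0.56 and -0.39 ± 0.40 at E14.5. Without E14.5 bladder replicate 1 the E14.5 values were 1.84 for Msx1 and 0.31 for Msx2, and without E18.5 bladder replicate 2 the E18.5 value of Msx1 was 3.60.

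Between stages Msx2 rose in bladder mesenchyme, by 1.79 ± 0.41 on the log2 scale (edgeR adjusted p = 0.00357), with means of 34.8 ± 8.30 CPM at E18.5 and 10.1 ± 6.83 CPM at E14.5 (SD, n = 3 each). Without E14.5 bladder replicate 1 the rise was 2.47 (edgeR adjusted p = 0.000104). Krt5 rose alongside, and with its log2 CPM added to the model the Msx2 stage difference in bladder was -0.54 ± 0.72 (edgeR adjusted p = 0.832), an estimate that leans on the within-group slope over a wide gap in Krt5. In urethral mesenchyme Msx2 differed by 0.21 ± 0.40 (edgeR adjusted p = 0.743) and Msx1 by 0.30 ± 0.54 (edgeR adjusted p = 0.732). Msx1 in bladder mesenchyme differed by -1.23 ± 0.59 (edgeR adjusted p = 0.106). That value turned on E18.5 bladder replicate 2, without which it was -2.26 (edgeR adjusted p = 0.00467), and on E14.5 bladder replicate 1, without which it was -0.45 (edgeR adjusted p = 0.502). The stage change of Msx2 was smaller in urethral than in bladder mesenchyme by 1.58 ± 0.57 on the log2 scale, which was not tested, since it is also the change of the contrast by which the genes were chosen.

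Barx2, a homeobox gene of branching glands and muscle in mice, was the most abundant of the 10 in E18.5 urethral mesenchyme, and per kilobase of exon it lay above 94.1% of the tested genes there. The locus is on chromosome 9, from 31846044 to 31913462 on the minus strand. Levels were 73.8, 80.4 and 80.2 CPM in E18.5 urethral libraries, against 9.64, 5.42 and 5.73 CPM in E18.5 bladder libraries. In E14.5 urethral libraries they were 39.0, 7.64 and 14.1 CPM, against 1.51, 0.539 and 0.259 CPM in E14.5 bladder libraries. The compartments did not overlap at either stage, and replicate 1 was the highest library in both E14.5 groups. Urethral minus bladder, Barx2 differed by 3.49 ± 0.59 on the log2 scale at E18.5 and by 4.72 ± 0.69 at E14.5. Leaving out E14.5 urethral replicate 1 gave 3.83 at E14.5, and leaving out E14.5 bladder replicate 1 gave 5.66.

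Barx2 rose with stage in both compartments, by 1.95 ± 0.55 on the log2 scale in urethral (edgeR adjusted p = 0.0264) and by 3.19 ± 0.69 in bladder mesenchyme (edgeR adjusted p = 0.00334). In bladder the rise was 4.10 without E14.5 bladder replicate 1 (edgeR adjusted p = 0.00151). The urethral call did not pass without E18.5 urethral replicate 1, 2 or 3 (edgeR adjusted p = 0.0542, 0.0710 and 0.0690) or without E14.5 urethral replicate 2 or 3 (edgeR adjusted p = 0.0544 and 0.104), and without E14.5 urethral replicate 1 the rise was 2.85. With Krt5 in the model, the stage difference of Barx2 was 0.90 ± 0.32 in urethral (edgeR adjusted p = 0.0913) and -1.78 ± 0.87 in bladder mesenchyme (edgeR adjusted p = 0.469). Other cell types moved with stage as well. In urethral mesenchyme 15 of 15 skeletal muscle markers were higher at E18.5, with sums of 905 to 1450 CPM at E18.5 and 21.8 to 169 CPM at E14.5, and 13 of 26 epithelial markers were. In bladder mesenchyme 25 of 26 epithelial and 9 of 10 smooth muscle markers were higher, the smooth muscle sums being 23517 to 43538 CPM at E18.5 and 6567 to 8628 CPM at E14.5. The part of muscle in the stage differences of Barx2 and Msx2 was not tested. Barx1, which patterns stomach and tooth mesenchyme, had 0, 8 and 2 counts in E18.5 urethral libraries, against 2, 0 and 2 counts in E18.5 bladder libraries. It had 2, 2 and 2 counts in E14.5 urethral libraries, against 4, 24 and 6 counts in E14.5 bladder libraries. Its highest level was therefore in bladder, at 0.995 CPM in E14.5 replicate 2. In a fit with no low-count filter its stage difference in bladder was -3.14 ± 1.15 (edgeR adjusted p = 0.0461).

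Lhx8, a LIM homeobox gene of palate and tooth mesenchyme and of forebrain neurons in mice, lies on chromosome 3 from 154306294 to 154330659. It was 12.5, 9.75 and 9.09 CPM in E18.5 urethral libraries, against 0, 0.107 and 0 CPM in E18.5 bladder libraries. At E14.5 it was 9.12, 3.79 and 4.96 CPM in urethral libraries, against 0, 0.497 and 0 CPM in bladder libraries. Summed counts were 1043 in E18.5 urethral and 2 in E18.5 bladder libraries, a ratio of 408 with an exact binomial 95% interval of 113 to 3372 after scaling for depth. At E14.5 they were 521 in urethral and 12 in bladder libraries, with a log2 difference of 5.08 ± 0.85, and all 12 bladder counts came from replicate 2. The neuronal markers above followed the same compartments; their part in the Lhx8 difference was not tested.

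Sp8, a zinc finger gene needed for limb outgrowth in mice, lies on chromosome 12 from 118846329 to 118852576. It was 14.9, 11.7 and 14.6 CPM in E18.5 urethral libraries, against 0, 0.483 and 0.544 CPM in E18.5 bladder libraries. It was 9.38, 6.93 and 9.22 CPM in E14.5 urethral libraries, against 0.640, 0 and 0 CPM in E14.5 bladder libraries. The lowest urethral library was thus above 6 CPM and the highest bladder library under 1 CPM. Log2 differences between compartments were 5.32 ± 0.91 at E18.5 and 5.34 ± 0.96 at E14.5. All 14 counts of E14.5 bladder mesenchyme came from replicate 1.

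Pax9 and Pax1 are sister genes of the sclerotome, the precursor of vertebrae, and of pharyngeal endoderm. Pax9 (chromosome 12, 56691767 to 56712822) was 7.54, 7.66 and 8.18 CPM in E18.5 urethral libraries, against 0 in each E18.5 bladder library. It was 5.82, 2.90 and 5.32 CPM in E14.5 urethral libraries, against 0, 0.0829 and 0 CPM in E14.5 bladder libraries. It had 764 counts in E18.5 urethral and 0 in E18.5 bladder libraries. The exact binomial 95% lower limit of the ratio was 162, and putting 3 counts over the group in place of 0 gave a ratio of 199. Such limits reflect counting error alone, not the spread between libraries. At E14.5 the sums were 410 in urethral and 2 in bladder libraries, a ratio of 154 with an exact binomial 95% interval of 42.4 to 1278. Pax1, in contrast, had 1 count, in E18.5 bladder replicate 3, and 0 in all other libraries. Opposite-strand exons of Slc25a21 cover 3.74% of the Pax9 exons. Cartilage markers, another product of sclerotome, summed to 121 to 163 CPM in E18.5 urethral and 67.3 to 77.9 CPM in E18.5 bladder libraries, and their part in the Pax9 difference was not tested.

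By edgeR over all 12 libraries, no stage difference passed the threshold for Lhx8, Sp8 or Pax9. In urethral mesenchyme the log2 differences were 0.82 ± 0.62 for Lhx8 (edgeR adjusted p = 0.371), 0.69 ± 0.70 for Sp8 (edgeR adjusted p = 0.508) and 0.74 ± 0.38 for Pax9 (edgeR adjusted p = 0.186). Sp8 passed when only the 6 urethral libraries were fitted (0.72 ± 0.20, edgeR adjusted p = 0.0358), and Pax9 passed by limma-voom (0.84 ± 0.25, adjusted p = 0.0251). All 3 E18.5 urethral libraries lay above all 3 E14.5 urethral libraries for Sp8 and Pax9, and for Msx1 and Barx2 too, as for 21.3% of all tested genes, but not for Lhx8. In bladder mesenchyme all 3 E18.5 libraries lay above all 3 E14.5 libraries for Msx2 and Barx2 (28.5% of all tested genes), and for no tested gene of the 10 did they all lie below (27.3% of all), though they did for Barx1. In bladder mesenchyme Sp8 differed by 0.71 ± 1.13 (edgeR adjusted p = 0.634), and without E14.5 bladder replicate 1 by 6.27 (edgeR adjusted p = 0.0210), an estimate set against libraries with no counts. Lhx8 in bladder rested on 2 counts at E18.5 and 12 at E14.5 (edgeR adjusted p = 0.200), and Pax9 on 0 and 2 counts, too few for a fold.

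**Figure D2:**
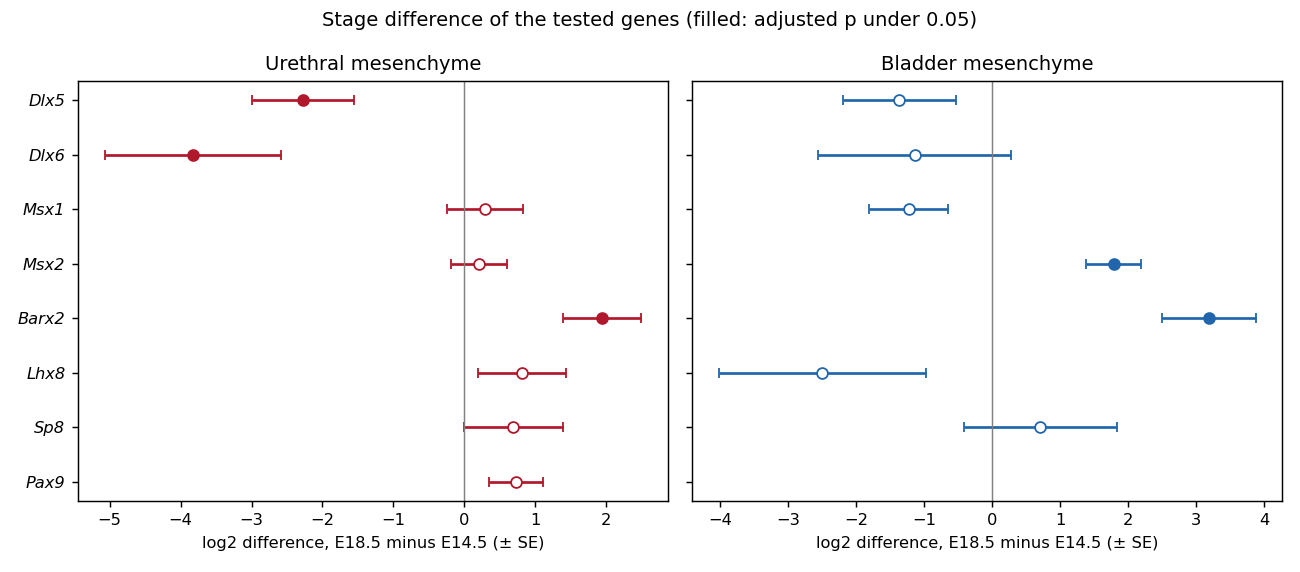
Log2 difference between E18.5 and E14.5 (x axis, ± SE) for the 8 tested genes in urethral mesenchyme (left) and bladder mesenchyme (right), on axes of unequal range; filled points passed an adjusted p of 0.05. Dlx5 and Dlx6 fell and Barx2 rose in urethral mesenchyme, Msx2 and Barx2 rose in bladder mesenchyme, and Pax9 has no bladder point because it had 0 and 2 counts.

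Across the 8 tested genes, 3 passed between stages in urethral mesenchyme, 1 higher and 2 lower at E18.5, where 24.4% of all tested genes passed, 13.6% higher and 10.8% lower. In bladder mesenchyme 2 of the 8 passed, both higher, where 45.7% of all tested genes passed, 23.7% higher and 22.0% lower. With 8 genes, neither count is read as a result about the list. Between compartments, 5 of the 10 had every urethral library above every bladder library at each stage: Barx2, Lhx8, Sp8 and Pax9 at both, with Dlx5 at E14.5 and Msx1 at E18.5. The same held for 24.2% of tested genes at E18.5 and for 18.47% at E14.5. One gene had every urethral library below every bladder library at each stage, Msx2 at E18.5 and Barx1 at E14.5, against 27.9% and 19.3% of tested genes. The choice of the genes used these compartment values, so nothing is read from these counts. By group mean, the 4 groups ranked E18.5 urethra, E14.5 urethra, E18.5 bladder, E14.5 bladder for Barx2 and Sp8, with the middle pair overlapping for Barx2 and the bladder pair overlapping for Sp8. For Msx1, Lhx8 and Pax9 the bladder groups were in the opposite order, and overlapped; for Lhx8 the urethral groups overlapped too. Dlx5 was highest in E14.5 urethral mesenchyme, with its other 3 groups overlapping in turn, and Msx2 highest in E18.5 bladder mesenchyme, likewise. For Dlx6 and Barx1 every pair of neighbours in the order overlapped. Per kilobase of exon, the group means in E18.5 urethral mesenchyme were 39.7 CPM for Barx2, 4.13 for Lhx8, 4.12 for Msx1, 3.01 for Sp8, 2.72 for Msx2 and 1.54 for Pax9, against a median of 4.62 for all tested genes. Dlx5 (0.586) and Dlx6 (0.0493) were lower still, so that Barx2 alone of the 8 lay above that median.

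Whether each gene follows residual epithelium was asked by the slope of its log2 level on that of Krt5 within groups, so that differences between groups play no part. Barx2 moved with Krt5 in the main fit, with a slope of 0.75 ± 0.12 log2 units per doubling of Krt5 (edgeR adjusted p = 0.00576). Of all tested genes 2.84% passed, 2.74% with a positive slope. Barx2 was the only one of the 8 to pass. With the summed epithelial markers in place of Krt5 it passed too, and with Epcam, another epithelial gene, it did not. Deviations of Barx2 from its group means correlated with those of Krt5 at Pearson's r = 0.888 and Spearman's rho = 0.853 over 12 libraries, each with an exact within-group permutation p = 0.000772, the smallest that 1296 permutations can give, and 0.223 and 0.230 after adjustment over all tested genes. The permutation shuffled each group by itself and so kept no pairing of same-numbered urethral and bladder libraries. If such libraries vary together, its p is too small. Without the 2 libraries farthest from the median Krt5 deviation, E14.5 bladder replicates 1 and 3, r was 0.931. As a positive control, 22 of 26 epithelial markers passed with a positive slope, with a median slope of 0.52, against -0.00029 for all tested genes. Krt5 itself is among the 22, and its slope on its own level (1.01) was fixed in advance. The call of Barx2 was not kept with either stage alone or without both E14.5 replicates 1: the slope was 0.70 in the 6 E14.5 libraries alone (edgeR adjusted p = 0.0577), 0.61 in the 6 E18.5 libraries (edgeR adjusted p = 0.964) and 0.87 without replicate 1 of both E14.5 groups (edgeR adjusted p = 0.462). With replicate number as a block it fell to 0.31 ± 0.23 and did not pass (edgeR adjusted p = 0.999). Of all 18805 tested genes, 207 passed in the 6 E14.5 libraries. In the 6 E18.5 libraries, without both E14.5 replicates 1, and with the block, 0 of all tested genes passed. The loss of the call alone in those settings therefore does not set Barx2 apart.

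Msx2 had a slope of 0.35 ± 0.094 that did not pass (edgeR adjusted p = 0.0823; r = 0.755, exact permutation p = 0.129, adjusted 0.597; rho = 0.538, exact permutation p = 0.159, adjusted 0.673). Without the 2 farthest libraries r was 0.0394, so the relation rested on them. With Epcam, another epithelial gene, in place of Krt5, Msx2 passed (edgeR adjusted p = 0.0282) and Barx2 did not (edgeR adjusted p = 0.139), and without E14.5 urethral replicate 1 Msx2 passed for Krt5 as well (edgeR adjusted p = 0.0147). Slopes of the others were 0.63 ± 0.31 for Sp8 (edgeR adjusted p = 0.400), 0.42 ± 0.24 for Dlx5 (edgeR adjusted p = 0.487), 0.42 ± 0.43 for Dlx6 (edgeR adjusted p = 0.775), 0.23 ± 0.17 for Msx1 (edgeR adjusted p = 0.641), 0.20 ± 0.27 for Pax9 (edgeR adjusted p = 0.848) and 0.026 ± 0.37 for Lhx8 (edgeR adjusted p = 0.989). Without E14.5 bladder replicate 1 the slopes of Dlx5, Dlx6 and Msx1 were negative, at -0.71, -1.501 and -0.52, and that of Sp8 was 0.014. A slope that misses the threshold does not show that a gene is free of epithelial RNA.

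**Figure D3:**
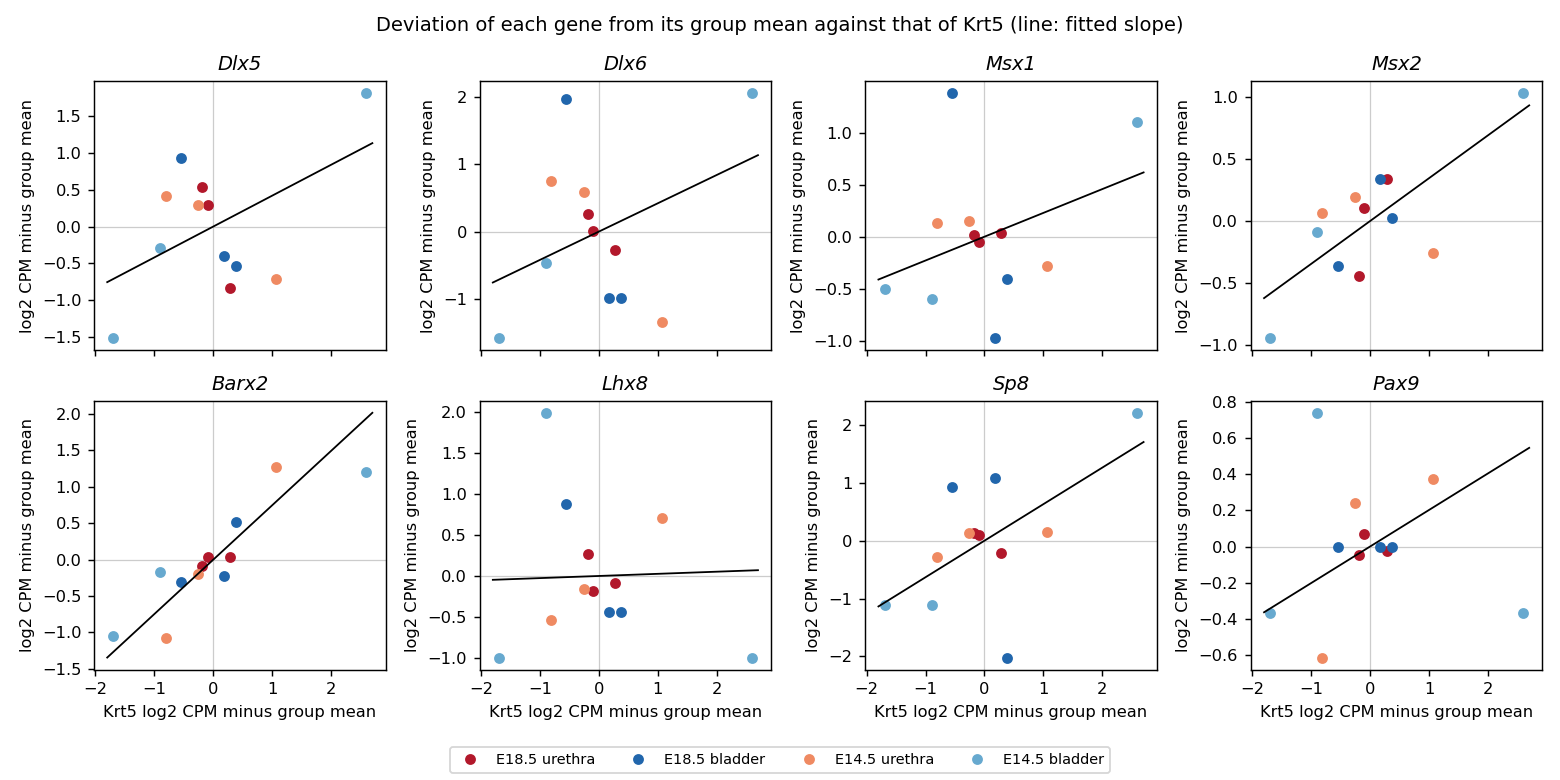
For each of the 8 tested genes, the log2 CPM minus its group mean (y axis) against the same for Krt5 (x axis) in the 12 libraries, coloured by group; the line is the fitted within-group slope. Barx2 climbs along its line with a slope of 0.75, while the slopes of Dlx5, Dlx6 and Msx1 are negative without the E14.5 bladder library at the far right.

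The ratio of counts to Krt5 counts in the same library compares the groups in another way, and it moves with Krt5 as well as with the gene. Krt5 and Epcam did not move alike between groups. In bladder mesenchyme Krt5 averaged 1148 CPM at E18.5 and 16.2 CPM at E14.5, against 171 and 27.6 CPM for Epcam. Neither this ratio nor a fit with Krt5 in the model therefore takes out epithelial content alone. Barx2 had 8.17 to 10.6 counts per 100 Krt5 counts in E18.5 urethral, against 0.459 to 0.717 in E18.5 bladder libraries. At E14.5 it had 5.61 to 7.81 in urethral, against 3.53, 12.2 and 14.4 in bladder libraries, the highest of them resting on few counts. The compartments were therefore apart in this ratio at E18.5 and overlapped at E14.5. With Krt5 in the model, the compartment difference of Barx2 was 3.87 ± 0.28 at E18.5, against 3.49 ± 0.59 without it, and 1.19 ± 0.65 at E14.5, against 4.72 ± 0.69 without it. Lhx8 kept 4.93 ± 1.98 and Pax9 6.10 ± 1.40 at E14.5 with Krt5 in the model, Sp8 2.82 ± 1.44 and Dlx5 1.12 ± 1.16. Dlx6 was 1.08 ± 1.97 and Msx1 0.08 ± 0.91 in that fit, and Msx2 was -1.90 ± 0.50, against -0.39 ± 0.40 without Krt5. E18.5 differences with Krt5 in the model were 2.63 ± 0.55 for Msx1, -1.81 ± 0.28 for Msx2 and 5.63 ± 0.74 for Sp8, within 1 SE of those without it. Lhx8 had 0.991 to 1.75 counts per 100 Krt5 counts in E18.5 urethral, against at most 0.0142 in E18.5 bladder libraries, and Sp8 1.19 to 2.09, against at most 0.0639. In both, the E18.5 compartments did not overlap. Msx2 ran the other way, with 0.891 to 1.23 counts per 100 Krt5 counts in E18.5 urethral, against 2.41 to 3.52 in E18.5 bladder libraries.

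**Figure D4:**
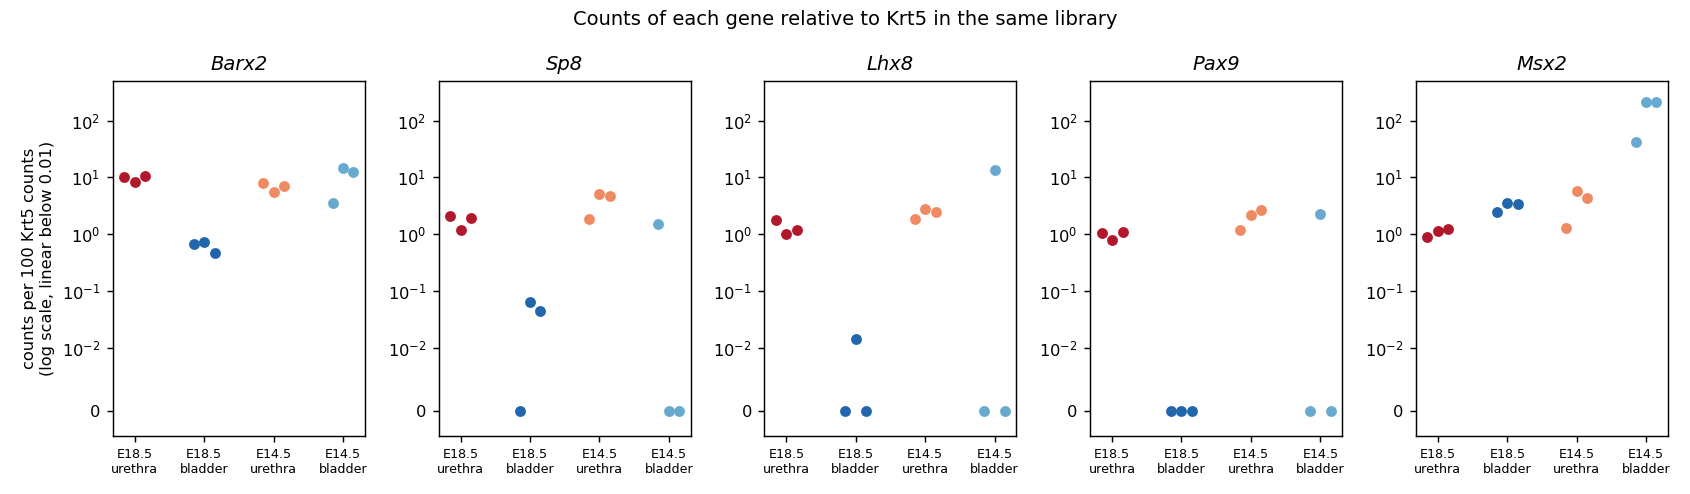
Counts of Barx2, Sp8, Lhx8, Pax9 and Msx2 per 100 Krt5 counts in each library, by group, on a log axis that is linear below 0.01. At E18.5 the urethral libraries lie above the bladder libraries for the first 4 genes and below them for Msx2; E14.5 bladder points of Sp8, Lhx8 and Pax9 rest on 14, 12 and 2 counts in 1 library each.

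Genes of the same families and of the signals known to act on them, 87 that are not among the 10, were compared between compartments, with 69 tested. At E18.5, 30 were higher and 10 lower in urethral mesenchyme (34.8% of all tested genes passed, 16.2% higher and 18.52% lower), and at E14.5, 22 were higher and 9 lower (24.9% of all passed, 12.5% higher and 12.4% lower). With Krt5 in the model 3 genes passed at E14.5, all of them lower, and 0 higher. Every E14.5 call named below as higher in urethral mesenchyme (Dlx3, Grem1, Nog, Chrd, Bmp7, Ednra, Edn3 and Alx4) is thus lost in that fit. Among all 18805 tested genes, E14.5 calls fell as well, from 4677 without Krt5 to 694 with it. The loss is therefore not read as a result about these genes. At E18.5, 41 of the related genes passed with Krt5 in the model, and 6829 of all tested genes. Leaving out single libraries gave 23 to 34 calls at E14.5. The lists were drawn up with results of these libraries known, so the counts are a description.

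Among relatives of the 10, of which 11 were tested, 6 were higher and 2 lower in urethral mesenchyme at E18.5, with a median log2 difference of 1.54, against -0.05 for all tested genes, and 2 were higher and 0 lower at E14.5, with a median of 0.81. Dlx2 averaged 1.30 ± 0.586 CPM in E18.5 urethral and 0.125 ± 0.0605 CPM in E18.5 bladder mesenchyme (log2 difference 3.28 ± 0.50, edgeR adjusted p = 0.000331). Pax7, the gene of muscle satellite cells, averaged 13.2 ± 3.11 CPM in E18.5 urethral and 0.125 ± 0.217 CPM in E18.5 bladder mesenchyme (log2 difference 7.02 ± 1.34, edgeR adjusted p = 0.00329). Without E18.5 bladder replicate 2 that difference was 11.57, set against libraries with no counts. Skeletal muscle markers summed to 905 to 1450 CPM in E18.5 urethral and 725 to 1217 CPM in E18.5 bladder libraries, 11 of 15 higher and 2 lower in urethral mesenchyme. Pax7 is itself among the 15 markers and among the 11 higher ones, so the list is not independent of it. The part of muscle in the Pax7 difference was not tested. Sp6, a relative of Sp8, ran opposite to it, at 15.4 ± 2.90 CPM in E18.5 urethral and 61.1 ± 14.4 CPM in E18.5 bladder mesenchyme (log2 difference -1.99 ± 0.57, edgeR adjusted p = 0.0198). That call did not pass without E18.5 urethral replicate 1 or 2 or E18.5 bladder replicate 3 (edgeR adjusted p = 0.0771, 0.0602 and 0.0593). Sp5 ran the same way as Sp8 at E18.5 (log2 difference 1.54 ± 0.56, edgeR adjusted p = 0.0498). Sp7 did not pass there (log2 difference -1.01 ± 0.44, edgeR adjusted p = 0.0973). Dlx3 was higher in E14.5 urethral mesenchyme (3.74 ± 1.02 CPM, against 1.12 ± 0.308 CPM in E14.5 bladder mesenchyme, log2 difference 1.74 ± 0.36, edgeR adjusted p = 0.00494). Lhx6, which acts with Lhx8 in the mouse jaw, averaged 2.69 ± 0.349 CPM in E18.5 urethral and 2.25 ± 0.0514 CPM in E18.5 bladder mesenchyme and did not pass (edgeR adjusted p = 0.624).

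The BMP list, which bears on Msx1 and Msx2, went both ways: of 20 tested genes 5 were higher and 5 lower in urethral mesenchyme at E18.5 (median 0.10), and 7 higher and 3 lower at E14.5 (median 0.22). Of the secreted BMP inhibitors, Grem1 and Nog passed at E18.5 and Chrd did not (log2 difference 0.51 ± 0.21, edgeR adjusted p = 0.0771). Grem1 averaged 10.02 ± 1.28 CPM in E18.5 urethral and 0.253 ± 0.166 CPM in E18.5 bladder mesenchyme (log2 difference 5.34 ± 0.63, edgeR adjusted p = 5.55e-05). Nog averaged 22.2 ± 2.73 CPM in E18.5 urethral and 3.03 ± 0.625 CPM in E18.5 bladder mesenchyme (log2 difference 2.87 ± 0.31, edgeR adjusted p = 2.68e-05). At E14.5 the log2 differences were 3.65 ± 0.59 for Grem1 (edgeR adjusted p = 0.00122) and 2.73 ± 0.30 for Nog (edgeR adjusted p = 0.000136), and without E14.5 urethral replicate 1 Grem1 differed by 2.78. Chrd passed at E14.5 as well (log2 difference 1.17 ± 0.21, edgeR adjusted p = 0.00222). The ligand Bmp6 was lower in urethral mesenchyme, at 10.7 ± 1.5 CPM in E18.5 urethral and 43.2 ± 6.78 CPM in E18.5 bladder mesenchyme (log2 difference -2.01 ± 0.37, edgeR adjusted p = 0.00114), as was Bmp5 (log2 difference -0.99 ± 0.22, edgeR adjusted p = 0.00342). Bmp7 was higher in E14.5 urethral mesenchyme (log2 difference 1.58 ± 0.21, edgeR adjusted p = 0.000330). The receptor Bmpr1a averaged 197 ± 17.9 CPM in E18.5 urethral and 240 ± 36.1 CPM in E18.5 bladder mesenchyme and did not pass (edgeR adjusted p = 0.129). Between stages in bladder mesenchyme, where Msx2 rose, the list was even, with 5 genes higher and 5 lower at E18.5. Bmp4, Smad5, Smad6, Id3 and Nog fell, by 0.50, 0.69, 0.37, 0.61 and 0.79 on the log2 scale (edgeR adjusted p = 0.0270, 0.000863, 0.0411, 0.00127 and 0.0480). Bmp2, Bmp6 and Bmp7 rose, by 2.73, 2.29 and 1.28 on the log2 scale (edgeR adjusted p = 0.000446, 0.000416 and 0.000327), as did Chrd and Id1.

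Endothelin A signalling acts upstream of Dlx5 and Dlx6 in the mouse jaw. The endothelin list is wider than that pathway, since it also holds the B receptor gene Ednrb and the ligand genes Edn2 and Edn3. It had 4 of 9 tested genes higher and 1 lower in urethral mesenchyme at E18.5 (median 0.52), and 2 higher and 2 lower at E14.5 (median -0.20). The receptor Ednra averaged 134 ± 13.4 CPM in E18.5 urethral and 18.49 ± 3.69 CPM in E18.5 bladder mesenchyme (log2 difference 2.86 ± 0.27, edgeR adjusted p = 1.51e-05). It averaged 179 ± 47.9 CPM in E14.5 urethral and 49.4 ± 17.6 CPM in E14.5 bladder mesenchyme (log2 difference 1.85 ± 0.26, edgeR adjusted p = 0.000532). The ligand Edn3 was higher in urethral mesenchyme at both stages (log2 difference 1.96 ± 0.22 at E18.5, edgeR adjusted p = 3.87e-05, and 1.01 ± 0.22 at E14.5, edgeR adjusted p = 0.00565), and Edn2 lower (-2.64 ± 0.54 at E18.5, edgeR adjusted p = 0.00225, and -2.52 ± 0.62 at E14.5, edgeR adjusted p = 0.0123). Without E14.5 bladder replicate 1 the E14.5 value of Edn2 was -1.53. Edn1, the ligand of the jaw pathway, rose between stages in urethral mesenchyme, the compartment where Dlx5 and Dlx6 fell, at 10.7 ± 3.16 CPM at E18.5 and 3.82 ± 1.36 CPM at E14.5 (log2 difference 1.48 ± 0.39, edgeR adjusted p = 0.0170). Urethral minus bladder, Edn1 differed by 1.69 ± 0.40 at E18.5 (edgeR adjusted p = 0.00528) and by -0.96 ± 0.39 at E14.5 (edgeR adjusted p = 0.0908).

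Of 9 tested FGF genes, 3 were higher and 0 lower in urethral mesenchyme at E18.5 (median 0.11) and 2 higher and 0 lower at E14.5 (median 0.33). Etv4, a transcriptional target of FGF signalling, averaged 14.4 ± 1.87 CPM in E18.5 urethral and 1.96 ± 0.296 CPM in E18.5 bladder mesenchyme (log2 difference 2.88 ± 0.36, edgeR adjusted p = 7.30e-05). The ligand Fgf10 averaged 28.7 ± 0.537 CPM in E18.5 urethral and 10.8 ± 2.19 CPM in E18.5 bladder mesenchyme (log2 difference 1.42 ± 0.32, edgeR adjusted p = 0.00412). Partners and targets from jaw, tooth, limb, stomach or sclerotome, with 22 tested, had 13 higher and 2 lower at E18.5 (median 1.13) and 10 higher and 4 lower at E14.5 (median 0.53). Alx4, a homeobox gene of limb and skull mesenchyme, averaged 28.0 ± 7.45 CPM in E14.5 urethral and 3.17 ± 1.38 CPM in E14.5 bladder mesenchyme (log2 difference 3.15 ± 0.40, edgeR adjusted p = 0.000323). Osr2, a palate and tooth gene, averaged 59.1 ± 8.52 CPM in E18.5 urethral and 5.34 ± 4.07 CPM in E18.5 bladder mesenchyme (log2 difference 3.50 ± 0.89, edgeR adjusted p = 0.0106), and differed by 4.17 without E18.5 bladder replicate 2. Hand1, which lies downstream of endothelin and BMP signals in the jaw, averaged 16.3 ± 1.33 CPM in E18.5 urethral and 1.95 ± 0.245 CPM in E18.5 bladder mesenchyme (log2 difference 3.05 ± 0.44, edgeR adjusted p = 0.000227). Sfrp2, the most abundant gene of this list that did not pass at E14.5, averaged 337 ± 118 CPM in urethral and 455 ± 11.2 CPM in bladder mesenchyme (edgeR adjusted p = 0.145).

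**Figure D5:**
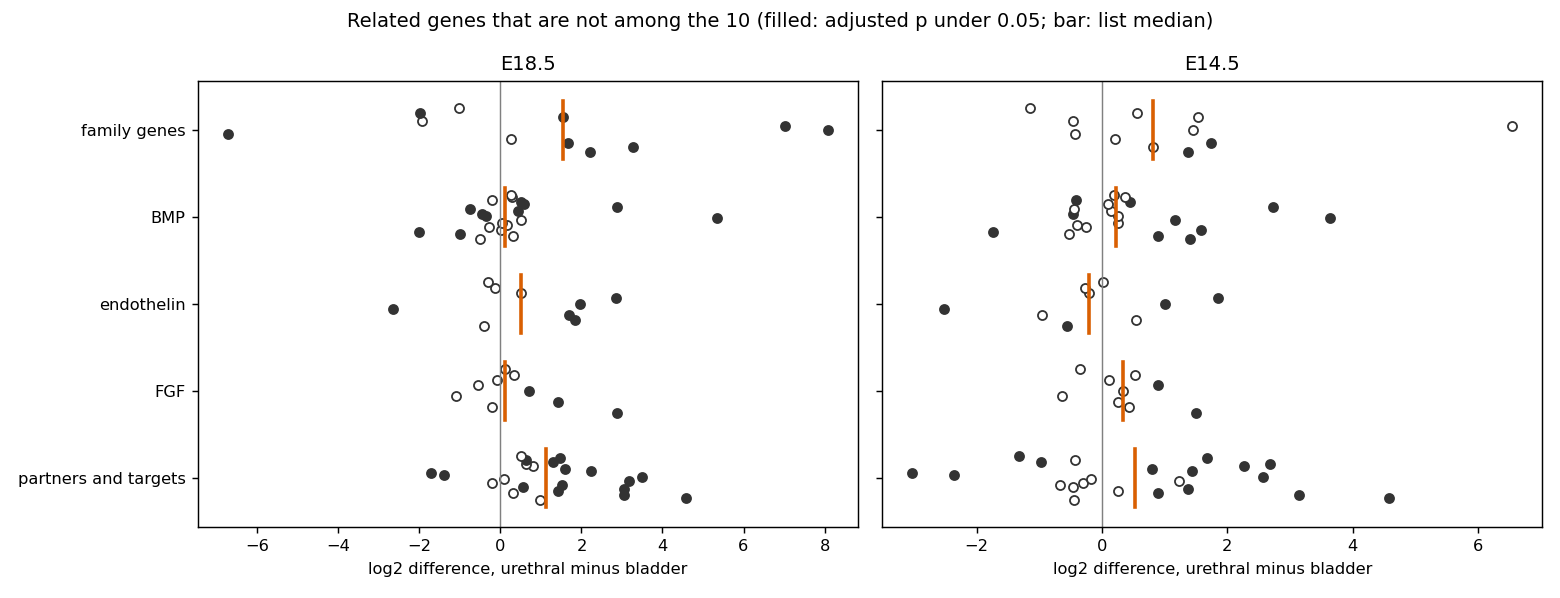
Log2 difference, urethral minus bladder, of each tested gene of 5 related lists at E18.5 (left) and E14.5 (right), on axes of unequal range; filled points passed an adjusted p of 0.05 and bars are list medians. The medians of the family genes (1.54 and 0.81) and of the partners and targets (1.13 and 0.53) lie right of 0, and that of the endothelin list lies at 0.52 at E18.5 and -0.20 at E14.5.

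The genes most like each of the 8 in profile were taken from 13947 genes by Pearson's r of log2 CPM over the 12 libraries, which share groups and depth. Closest to Dlx5 was Hoxd1 (r = 0.975), which was also closest to Dlx6 (r = 0.905); it averaged 0.373 CPM in E18.5 urethral and 4.01 CPM in E14.5 urethral mesenchyme. Next to Dlx5 came Axin2 (r = 0.955) and Phf21b (r = 0.940), and next to Dlx6 Sema5b (r = 0.891) and Neto2 (r = 0.888). Msx1 was most like Cdh7 (r = 0.975), Hoxc9 (r = 0.944) and Vwa2 (r = 0.943), and Msx2 most like Ppil6 (r = 0.959), Arhgap20 (r = 0.952) and Tspan15 (r = 0.947). Barx2 ran closest with Pkp4 (r = 0.984), Pkp1 (r = 0.982) and Trim2 (r = 0.982); both plakophilins are proteins of cell junctions. Lhx8 was most like Notch3 (r = 0.976), Pcdhb18 (r = 0.972) and Pde1c (r = 0.965), Sp8 most like B3galt5 (r = 0.978), Ebf3 (r = 0.973) and Slc7a3 (r = 0.964), and Pax9 most like AI606473 (r = 0.986), Notch3 (r = 0.983) and Tfap2a (r = 0.977). AI606473 had 0 counts in all E18.5 bladder libraries, as Pax9 did, and averaged 5.31 ± 0.833 CPM in E18.5 urethral mesenchyme.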

How the data were processed

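RNA-seq was made from 12 libraries of separated mesenchyme, 3 in each of 4 groups. The authors deposited unnormalised gene counts, 1 table per stage. Reads were processed with bcl2fastq, HISAT2 2.2.1 and SAMtools 1.9 against GRCm38, per the submitters' processing notes. How reads were assigned to genes, by which tool, strand rule and annotation, is not given in the sources used here. Counts of 2 outnumbered counts of 1 by 2.06 to 2.51 times, so intervals, which reflect counting error alone, are too narrow. Genes were filtered with filterByExpr (minimum count 10), scaled by TMM and tested in R 4.3.3 with edgeR 4.0.16 quasi-likelihood tests in 1 model of 4 group means (8 residual degrees of freedom), with Benjamini-Hochberg adjustment over all 18805 genes and a threshold of 0.05. For the Krt5 slope, log2 CPM of Krt5 (prior count 2) was added to that model. Alternatives were DESeq2 1.42.0, limma-voom 3.58.1, median-ratio size factors, other filters, other epithelial measures, fewer libraries and a replicate block. Krt5 as a covariate of the stage and compartment differences, and a fit without the first replicate of each E14.5 group, were added after seeing the data.

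The 10 genes and all lists were chosen with earlier results of these data known. From each list, up to 4 called genes with the largest difference and at least 1 CPM and the most abundant gene not called were eligible for naming, and the text names part of them, picked after their values were seen. Deviations of same-numbered urethral and bladder libraries from their group means correlated at 0.197, 0.193 and 0.286 at E18.5, so the numbers were taken to pair the E18.5 samples. At E14.5 they correlated at 0.191, -0.0285 and 0.206, and the numbers were not taken to pair them. The main model held no block. As an alternative, the replicate block was fitted within each stage, E14.5 included, for compartment differences and Krt5 slopes. For stage differences it joined equal numbers across stages, where the litters differ, so it marks no real pair there. With the block, the endothelin list had 1 lower call at E14.5 in place of 2, and the FGF list 1 lower call at E18.5 in place of 0. The tests were checked on simulated data. Promoters came from RefSeq and loci from GENCODE.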

Additional observations from a re-analysis of the deposited data

How the results depend on the processing

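By edgeR, the count of the 10 genes passing between stages in urethral mesenchyme was 3 and is fragile: 0 with no low-count filter, 1 with replicate number as a block, 1 with Krt5 in the model, and 0 to 3 when 1 library was left out. In bladder it was 2, 0 with Krt5 in the model, and 2 to 3 with 1 library left out. Of all 18805 tested genes, 175 passed between stages in bladder and 2190 in urethral mesenchyme with Krt5 in the model, against 8597 and 4586 without. For the slope on Krt5 the count of the 10 genes was 1, 2 with no filter, 0 in the 6 E14.5 libraries, 0 in the 6 E18.5 libraries, 0 with the replicate block, 0 without replicate 1 of both E14.5 groups, and 1 to 2 with 1 library left out. Of all 18805 tested genes, 534 passed for this slope in the main fit and 207 in the 6 E14.5 libraries. In the 6 E18.5 libraries, with the replicate block, and without replicate 1 of both E14.5 groups, 0 of all tested genes passed. Of related genes, 31 passed at E14.5 (3 with Krt5 in the model, 23 to 34 with 1 library left out, 31 with the block) and 40 at E18.5 (33 to 42, and 42 with the block). The cause of these changes was not tested.

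Of 508 values of single genes under alternatives, 438 kept direction and side of the threshold and 34 changed sign. With Krt5 in the model, urethral stage differences were -0.14 (Msx1), -0.46 (Msx2) and -0.43 (Sp8), and bladder ones -0.54 (Msx2), -1.78 (Barx2) and -3.24 (Sp8). Without replicate 1 of both E14.5 groups, bladder stage differences were 0.19 (Dlx5) and 1.53 (Dlx6), and slopes -0.84 (Dlx5), -2.12 (Dlx6), -1.01 (Msx1) and -0.55 (Sp8). In the 6 E18.5 libraries slopes were -2.28 (Dlx5), -5.87 (Dlx6), -1.77 (Msx1), -1.27 (Lhx8), -1.27 (Sp8) and -0.061 (Pax9). Lhx8 slopes were -0.44 on Epcam and -0.64 with the block, that of Pax9 -0.11 with the block, and that of Dlx6 -0.077 by limma-voom. With 1 library left out, bladder stage differences ranged from -2.04 to 0.19 (Dlx5), -6.11 to 1.54 (Dlx6) and -5.34 to 2.82 (Lhx8), and slopes from -0.71 to 0.60 (Dlx5), -1.50 to 0.77 (Dlx6), -0.52 to 0.32 (Msx1), -0.52 to 0.68 (Lhx8) and -0.070 to 0.46 (Pax9). None of these reversed values passed the threshold. Depth limits Barx1, Pax1, Dlx6 and the bladder values of Lhx8, Sp8 and Pax9.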
